A study of Mus musculus with 10 samples.

Results

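Basal cells of the straight sweat duct were set against the other cells sorted from mouse paw pads. The 117 genes described here, of 12393 genes with a probe set of their own on the array, gave a signal of at least 300 on both duct basal arrays and, on the dimmer of these, at least 2 times the highest signal of the 8 other arrays. They are 0.944% of all genes. Each gene was read from its probe set with the highest mean. Of the 117 genes, 81 stand in lists of cell cycle genes (54 of mitosis and G2/M, 27 of DNA replication and S phase) and 36 stand outside them. The rule used the signals themselves, so the difference between duct basal cells and the rest is given for these genes as a description, without a test.

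The duct basal cells were compared with duct suprabasal cells, gland myoepithelial cells, gland luminal cells and palmoplantar epidermis. All 5 populations were taken from the paw pads of female CD1 mice with the wild-type genotype, were purified by fluorescence-activated cell sorting and were measured on 2 Affymetrix arrays each, labelled as biological replicates. Ages, sort markers and the number of animals behind an array are not given in the labels, and p-values measure only the spread between these arrays. The deposited values are MAS5 signals on a linear scale, with the same trimmed mean, 500, on every array.

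The sweat gland is a coiled secretory tube joined to the skin surface by a straight duct. In the duct a basal layer rests on the basement membrane and suprabasal cells line the lumen, and in stratified epithelia of this kind the basal layer is known as the place where most cells divide. A dividing cell first makes the replication machinery, such as the Mcm helicase that opens DNA and the ribonucleotide reductase that supplies nucleotides, and later the kinases, spindle proteins and chromosome passengers of mitosis. Genes of the first group are classically controlled through E2F sites, and those of the second through the cell cycle homology region, known as CHR, often next to CCAAT boxes bound by NF-Y.

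The arrays of the duct basal population carried the transcripts that define basal keratinocytes. Krt14, a keratin of basal layers, read 35992 and 33737 (the 2 duct basal arrays, here and below in the order of their replicate numbers), Krt5, its partner, 24116 and 26013, and Trp63, the transcription factor that maintains stratified epithelium, 3631 and 3004. Trp63 is not particular to duct basal cells. It read 3807 and 4738 on the myoepithelial and 2170 and 2534 on the epidermis arrays, and at most 504.8 on the duct suprabasal and luminal arrays. Across all 12393 genes, which are not independent replicates, the log2 signals of the duct basal arrays had a correlation of 0.969, and 1462 genes differed by over 2-fold between them. The same correlation was 0.938 in duct suprabasal cells, the lowest of the 5 populations, and 0.967 to 0.979 in the 3 others. Median signals were 92.7 to 120.1 outside the epidermis, whose 2 arrays had 65.7 and 67.3. Markers of other cell types were not absent. The summed signal of 10 fibroblast markers was 27362 and 21820 on the duct basal arrays, against 17475 and 98062 on the duct suprabasal, 32773 and 44370 on the myoepithelial, 2336 and 6669 on the luminal and 1115 and 1400 on the epidermis arrays. On the duct basal arrays most of it was Dcn (22039 and 18361). On the myoepithelial arrays most was Postn (19850 and 28037) and Dcn (11955 and 15303), so these sums rest on few genes. The summed signal of 11 endothelial markers was 1504 and 728 on the duct basal arrays and 6926 and 32280 on the duct suprabasal arrays. Duct suprabasal array 2 thus stood highest in both marker sums, and the counts of members that involve it are given with and without it. Genes of epidermal differentiation were present too. The summed signal of 22 of them was 58307 and 88672 on the duct basal and 56386 and 54739 on the duct suprabasal arrays. It was 18737 and 23291 on the myoepithelial, 10028 and 11864 on the luminal and 202375 and 198184 on the epidermis arrays. In sorted bulk samples such as these, fewer cells of a type and less RNA per cell cannot be told apart.

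**Figure D1:**
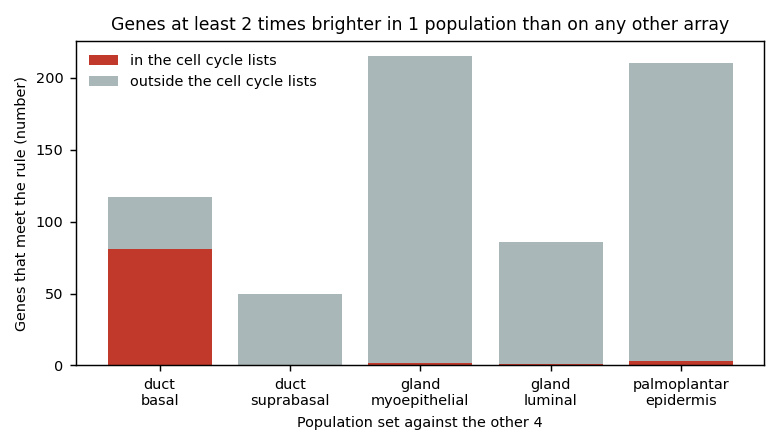
Number of genes that met the same rule when each population in turn was set against the 8 arrays of the others, with genes of the cell cycle lists apart from the rest. Cell cycle genes are 81 of 117 in duct basal cells and at most 3 in any of the 4 other populations.

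The genes that stood out in duct basal cells were mostly genes of cell division. Applied to each of the other populations in turn, the same rule found 50 genes in duct suprabasal cells, none of them in the cell cycle lists, 215 in myoepithelial cells with 2 cell cycle genes, 86 in luminal cells with 1 and 210 in epidermis with 3. Cell cycle genes made up 69.2% of the genes in duct basal cells and at most 1.43% elsewhere, as the plot of genes by population shows. The ratio of the dimmer duct basal signal to the highest other signal had a median of 3.84 among the 81 cell cycle genes and of 2.74 among the 36 others. It reached at least 3 for 58 of the 81 and 16 of the 36, and at least 4 for 39 and 6. At the ratio threshold the nearest genes inside were Dram1 at 2.02, Rfc3 at 2.02 and Paqr7 at 2.00, and the nearest outside were Bcl11b at 1.99, Prim2 at 1.92 and Efnb1 at 1.92. At the signal threshold Aurka (311.9 on the dimmer duct basal array), Pole (310.9) and Serpinb1b (302.2) lay inside, and Ube2t (299.5), Wdhd1 (299.1) and Zwilch (284.5) outside.

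The 27 genes of DNA replication and S phase ran from the control of origins to the supply of nucleotides. Cdt1, which loads the replicative helicase onto origins, had a signal of 2088 and 2083 in duct basal cells, against 267.0 and 311.1 in duct suprabasal, 292.3 and 357.8 in myoepithelial, 90.9 and 94.1 in luminal cells and 297.6 and 312.2 in epidermis. Outside duct basal cells the order of Cdt1 was thus nearly level in 3 populations, with luminal cells lowest. Of the Mcm helicase, Mcm3, Mcm5, Mcm6 and Mcm7 met the rule. Mcm6 read 2236 and 1917 in duct basal cells, against 387.2 and 662.4 in duct suprabasal, 220.1 and 199.9 in myoepithelial, 139.3 and 157.6 in luminal cells and 420.3 and 349.9 in epidermis. Both subunits of ribonucleotide reductase were members. Rrm2, its regulated subunit, read 2542 and 1881 in duct basal cells, against 183.6 and 252.7 in duct suprabasal, 90.2 and 104.6 in myoepithelial, 29.6 and 35.9 in luminal cells and 510.0 and 393.3 in epidermis. E2f8, an atypical E2F that represses transcription, had the largest ratio of the group, at 8.50. It read 363.1 and 367.7 in duct basal cells, and between 1.9 and 42.7 on the 8 other arrays. Tk1, the thymidine kinase of dividing cells, followed with 1171 and 1399 in duct basal cells and between 6.2 and 167.5 elsewhere. The DNA polymerase subunits Pola1, Pold1 and Pole, the ligase Lig1, the maintenance methyltransferase Dnmt1 and its partner Uhrf1 belonged to the same group.

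The 54 genes of mitosis and G2/M had larger ratios than the S phase genes, with medians of 4.55 and 3.16. Top2a, the topoisomerase that untangles sister chromatids, read 2806 and 2456 in duct basal cells, against 286.1 and 257.7 in duct suprabasal, 79.3 and 36.3 in myoepithelial, 34.3 and 44.0 in luminal cells and 259.2 and 286.7 in epidermis. Outside duct basal cells, Top2a was at similar levels in duct suprabasal cells and epidermis, and lower in both layers of the gland. Aspm, a spindle pole protein, had the largest ratio of all 117 genes, at 8.77, with 1644 and 1299 in duct basal cells and between 15.4 and 148.0 elsewhere. The checkpoint kinase Bub1 read 568.2 and 410.3 in duct basal cells and at most 53.1 elsewhere, and its relative Bub1b 626.3 and 610.8 and at most 83.1. Cdk1, the kinase that starts mitosis, read 2515 and 2143 in duct basal cells, against 173.4 and 220.0 in duct suprabasal, 41.0 and 29.2 in myoepithelial, 62.3 and 66.0 in luminal cells and 332.0 and 367.2 in epidermis. Its cyclin Ccnb2 read 990.7 and 1010 in duct basal cells and at most 173.0 elsewhere. The chromosomal passenger complex, which corrects the attachment of chromosomes, had 3 members here, of which Aurkb read 391.4 and 744.5 in duct basal cells and at most 57.5 elsewhere, Incenp 3796 and 3030 and at most 506.8, and Birc5 2124 and 2614 and at most 385.0. Kif2c, a motor that takes microtubules apart, read 1313 and 954.4 in duct basal cells and at most 144.2 elsewhere. Cenpf, a kinetochore protein, read 1329 and 1062 and at most 165.3. Mki67, the usual marker of dividing cells, read 2048 and 1615 in duct basal cells and at most 378.4 elsewhere, with a ratio of 4.27. The 9 cell cycle members whose duct basal arrays lay over 1.5-fold apart were all in the mitosis group, and 24 of the 81 were brighter on duct basal array 2.

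**Figure D2:**
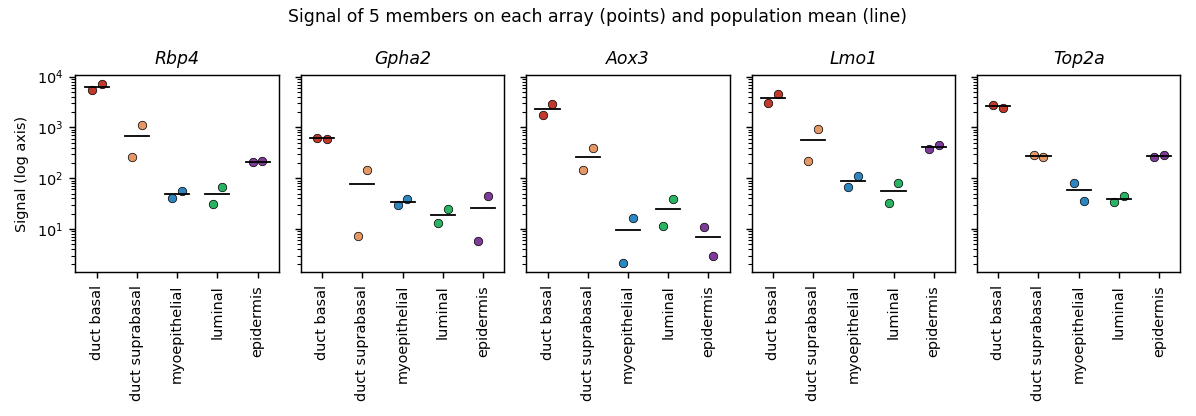
Signal of Rbp4, Gpha2, Aox3, Lmo1 and Top2a on each of the 10 arrays (points) with the mean of each population (line), on a log axis. In all 5 panels both duct basal points lie above the 8 others, and duct suprabasal cells are next highest in 4 of the panels and close to epidermis for Top2a.

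Promoter sequence was read for the members because so many are cell cycle genes that are known to be controlled as groups. For each gene the first window listed by RefSeq (GRCm38.p6) was used, 300 bases long, with 250 before and 50 after the start of the gene, and 101 of the 117 members had one. Stretches of the 150 bases before the start are printed for 4 members with matches, Top2a, Cdk1 and Cdc20 of mitosis and Mcm6 of replication, and for Rbp4 and Gpha2, which had none, all chosen after the matches were seen. Capitals mark matches on either strand to the letters of a CCAAT box, to a CHR, which was searched as TTTGAA and in its variant as TTCGAA, or to an E2F site, which was searched as TTTCCCGC, as TTTCGCGC, as TTTGGCGC and as TTTGCCGC. Overlapping matches run together.
Top2a (chr11:99024190-99024339, minus strand): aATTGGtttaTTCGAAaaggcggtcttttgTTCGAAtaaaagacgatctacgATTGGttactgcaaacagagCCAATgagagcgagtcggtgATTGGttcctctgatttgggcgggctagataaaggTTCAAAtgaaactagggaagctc
Cdk1 (chr10:69352913-69353062, minus strand): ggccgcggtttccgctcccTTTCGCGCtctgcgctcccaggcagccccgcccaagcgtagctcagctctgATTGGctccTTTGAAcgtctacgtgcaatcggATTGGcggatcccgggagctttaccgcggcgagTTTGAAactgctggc
Cdc20 (chr4:118437344-118437493, minus strand): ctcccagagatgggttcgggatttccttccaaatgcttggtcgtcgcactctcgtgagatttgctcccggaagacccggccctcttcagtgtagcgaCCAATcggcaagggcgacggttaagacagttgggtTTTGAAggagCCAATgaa
Mcm6 (chr1:128359706-128359855, minus strand): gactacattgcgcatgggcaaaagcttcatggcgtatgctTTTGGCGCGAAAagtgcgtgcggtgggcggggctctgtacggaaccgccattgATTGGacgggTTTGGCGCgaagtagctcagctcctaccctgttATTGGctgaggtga
Rbp4 (chr19:38125322-38125471, minus strand): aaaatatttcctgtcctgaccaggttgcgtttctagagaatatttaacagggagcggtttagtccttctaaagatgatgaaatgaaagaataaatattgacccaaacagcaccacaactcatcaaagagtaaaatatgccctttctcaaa
Gpha2 (chr19:6226251-6226400, plus strand): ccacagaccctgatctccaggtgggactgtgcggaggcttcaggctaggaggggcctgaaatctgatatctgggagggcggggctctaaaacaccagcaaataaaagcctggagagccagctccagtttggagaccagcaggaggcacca

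In the Cdk1 stretch a CHR starts 15 bases before the gene start, with CCAAT boxes at 48 and 80 bases, and in the Cdc20 stretch a CHR starts at 18 bases, with CCAAT boxes at 8 and 53 bases. Top2a has 4 CCAAT boxes and 3 CHR matches in its stretch. Mcm6 has 2 CCAAT boxes and 3 E2F matches and no CHR. Over the full windows, a CHR match was found in 34 of the 46 mitosis members with a window (73.9%), in 7 of 25 S phase members (28%) and in 2 of 30 members outside the lists (6.67%), against 14.7% of the 9887 genes on the array with a window. A CCAAT box and a CHR together were found in 28 of the 46 mitosis members (60.9%), against 5.96% of all genes. An E2F match was found in 10 of the 25 S phase members (40%), in 3 of the 46 mitosis members and in none of the 30 others, against 3.57% of all genes. A CCAAT box was found in 31 mitosis, 16 S phase and 8 other members (67.4%, 64.0% and 26.7%), against 38.1% of all genes. Array genes of the same cell cycle lists that did not meet the rule had a CHR match in 42 of 122 (34.4%). A CCAAT box was found in 72 of these 122 (59.0%). This set pools mitosis and S phase genes, and its shares were not computed for each list. It therefore cannot show whether members differ from other genes of the same list. A match to these letters is a description of the sequence and does not show that a factor binds there.

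**Figure D3:**
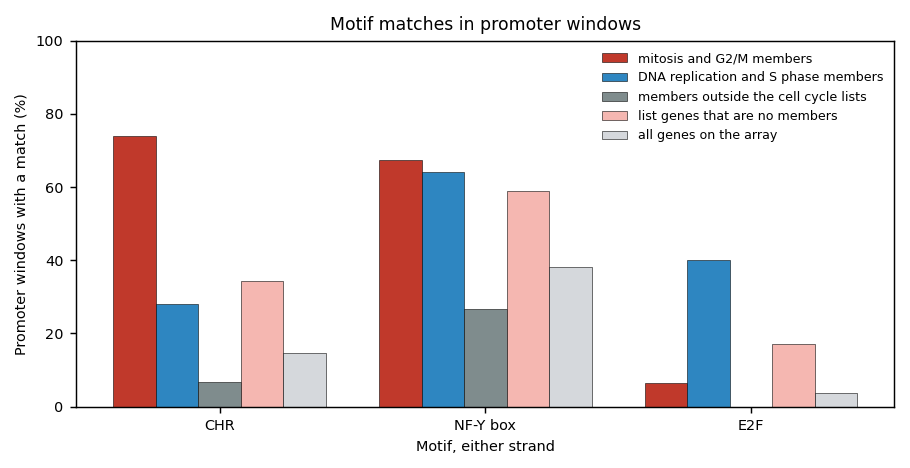
Share of promoter windows with a match to each motif, in percent, for 3 groups of members, for genes of the cell cycle lists that did not meet the rule and for all genes on the array; NF-Y box stands for the CCAAT box. CHR matches are in 73.9% of mitosis members and E2F matches in 40% of S phase members, against 14.7% and 3.57% of all genes. In the pooled list genes that did not meet the rule they are in 34.4% and 17.2%.

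The 36 members outside the cell cycle lists were grouped by known role after their values were seen, and the 20 with the largest ratios are given by array or range. Of the genes of vitamin A handling, Rbp4 and Aox3 met the rule, as did the alcohol dehydrogenase Adh7. Rbp4, which carries retinol in blood, read 5365 and 7334 in duct basal cells, against 256.0 and 1116 in duct suprabasal, 40.3 and 55.5 in myoepithelial, 31.0 and 67.8 in luminal cells and 204.9 and 221.6 in epidermis. Aox3, an aldehyde oxidase, read 1720 and 2925 in duct basal cells, against 143.5 and 390.8 in duct suprabasal, 2.1 and 16.6 in myoepithelial, 11.2 and 38.6 in luminal cells and 10.9 and 3.0 in epidermis. Both genes had their next highest level in duct suprabasal cells, whose arrays lay far apart. Adh7, an enzyme that can oxidise retinol, read 3585 and 2145 in duct basal cells, against 967.2 and 723.6 in duct suprabasal, 29.8 and 57.1 in myoepithelial, 15.1 and 12.9 in luminal cells and 141.5 and 230.9 in epidermis.

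Secreted and membrane-bound signals and their modulators made up 9 of the 36. Gpha2, the alpha subunit of the glycoprotein hormone thyrostimulin, read 619.1 and 604.3 in duct basal cells, against 7.4 and 144.0 in duct suprabasal, 29.2 and 39.1 in myoepithelial, 12.9 and 25.2 in luminal cells and 5.9 and 45.3 in epidermis. Duct suprabasal array 2 was the 1 other array above 45.3, far from array 1 of its population. Pappa, a protease that frees insulin-like growth factors from their binding proteins, had the largest ratio outside the cell cycle, at 6.52, with 630.2 and 614.3 in duct basal cells and between 5.2 and 94.2 elsewhere. Ptn, the heparin-binding growth factor pleiotrophin, read 13079 and 10053 in duct basal cells, against 1237 and 2296 in duct suprabasal, 529.5 and 621.1 in myoepithelial, 51.3 and 138.6 in luminal cells and 498.2 and 644.9 in epidermis. Genes of Wnt signalling stood on both its sides. Rspo1, which strengthens the response to Wnt, read 770.3 and 744.1 in duct basal cells, 149.3 and 195.4 in duct suprabasal cells and at most 13.6 on the 6 other arrays. The ligand Wnt10a read 811.1 and 814.3 in duct basal cells and at most 300.5 elsewhere, on an epidermis array. Notum, an enzyme that inactivates Wnt ligands, read 797.2 and 872.1 in duct basal cells, 209.5 and 360.4 in duct suprabasal cells and at most 108.3 on the 6 others. Bmp2, Jag1 (a Notch ligand) and Sulf2 (which trims heparan sulfate outside the cell) had ratios of 2.06, 2.23 and 2.15.

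Among transcription factors and cofactors Lmo1, a LIM-only protein that bridges other factors, read 3000 and 4564 in duct basal cells, against 216.2 and 929.6 in duct suprabasal, 66.1 and 110.6 in myoepithelial, 32.3 and 80.5 in luminal cells and 369.1 and 453.6 in epidermis. Trp73, a relative of p53, read 441.4 and 313.8 in duct basal cells and at most 80.0 elsewhere. Bnc1, a zinc finger protein known from basal keratinocytes, read 386.1 and 487.2 in duct basal cells, 114.0 and 127.7 in epidermis and at most 46.3 on the 6 others. For Bnc1 the next level was thus that of epidermis and not of the duct. Sap30, a part of the Sin3 corepressor, had a high floor, with 5228 and 5948 in duct basal cells and between 961.1 and 1732 elsewhere. Sox7 read 2049 and 1970 in duct basal cells, 429.0 and 742.7 in duct suprabasal cells, 833.4 and 687.4 in epidermis and at most 75.0 in the gland. Sox15 and Mesp2 had ratios of 2.09 and 2.30.

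The remaining members were of several kinds. Of the matrix, Tnc (tenascin C) read 376.7 and 413.4 in duct basal cells and at most 80.3 elsewhere, and the collagen Col8a1 read 1622 and 1289 in duct basal cells, 222.5 and 408.3 in duct suprabasal cells and at most 64.4 elsewhere. Vsnl1, a neuronal calcium sensor, read 1444 and 1129 in duct basal cells, 296.3 and 283.8 in the myoepithelium and at most 102.9 on the 6 others. It was 1 of 5 of the 36 members whose next highest population mean was that of myoepithelial cells. Epb41l3, which ties membrane proteins to the cytoskeleton, read 535.0 and 520.7 in duct basal cells and at most 187.3 elsewhere. Of lipid and redox enzymes, Fads3 (a desaturase family member) read 633.1 and 762.3 and at most 187.2 elsewhere, and Gclm, a subunit of the enzyme that starts glutathione synthesis, 2477 and 2889 and at most 836.2. The protease inhibitor Serpinb1b read 302.2 and 344.3 in duct basal cells and at most 98.7 elsewhere. Lrr1, which is in none of the lists although it is known to act in DNA replication, read 434.4 and 497.6 in duct basal cells and at most 129.8 elsewhere. Ratios between 2.00 and 2.29 were found for Cyp7b1 (an oxysterol hydroxylase), Tnfrsf21 (death receptor 6), Slc6a4 (the serotonin transporter), Otud7a (a deubiquitinase), Nrm and Aaas of the nuclear envelope, Ctsc (cathepsin C), Dram1 (a regulator of autophagy) and Paqr7 (a membrane progestin receptor). The duct basal arrays lay over 1.5-fold apart for 5 of the 36, and 23 of the 36 were brighter on array 2.

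**Figure D4:**
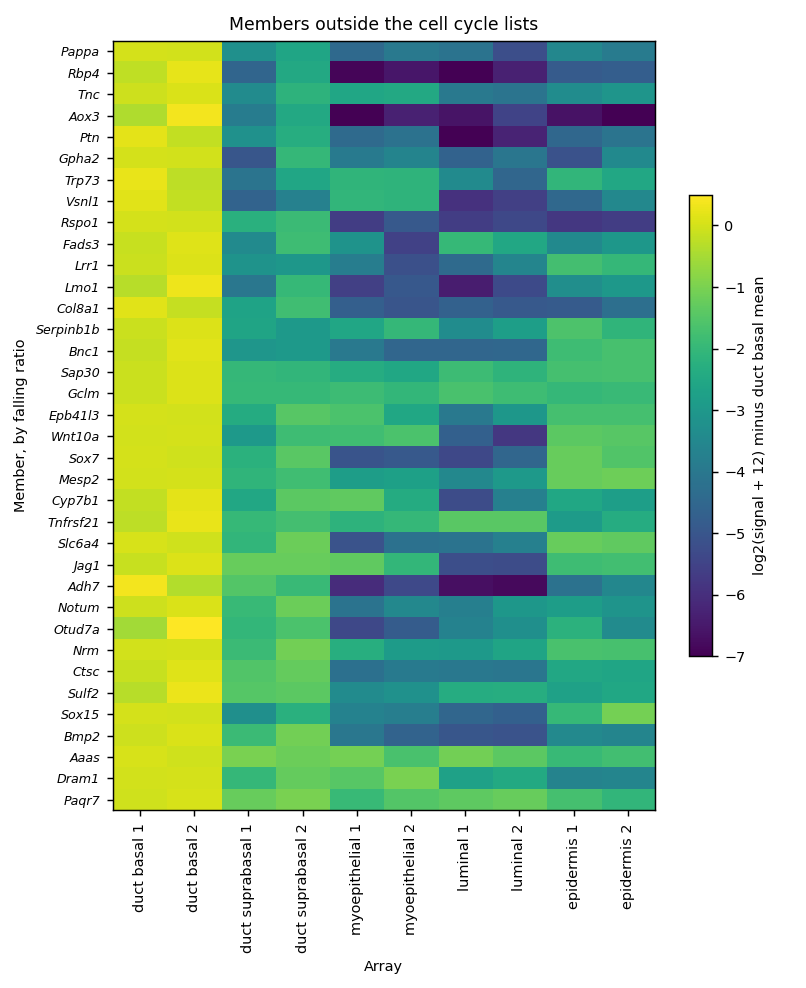
Level of the 36 members outside the cell cycle lists on each of the 10 arrays, as log2(signal + 12) minus the mean of the duct basal arrays, in order of falling ratio. Both duct basal columns are near 0 and all other fields are below, with duct suprabasal array 2 mostly nearer to duct basal cells than array 1.

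The arrays of the other populations that came closest to duct basal cells differed between the classes. The mean of the epidermis was the next highest for 51 of the 81 cell cycle members and for 10 of the 36 others. Duct suprabasal cells were next highest for 18 of the 81 and 18 of the 36, which became 20 and 15 without duct suprabasal array 2. As a share of the duct basal mean, the median mitosis member stood at 12.6% in duct suprabasal, 4.47% in myoepithelial, 3.64% in luminal cells and 16.5% in epidermis. The median S phase member stood at 21.7%, 14.0%, 12.9% and 19.0% of the duct basal mean in the same populations, and the median member outside the lists at 24.1%, 5.98%, 3.53% and 15.1%. Without array 2 the duct suprabasal medians were 12.9% for mitosis, 18.6% for S phase and 18.5% outside the lists. Duct suprabasal array 2 was the highest other array for 20 of the 36 and 10 of the 81, and 32 of the 36 were brighter on it than on duct suprabasal array 1, against 50.5% of all genes. That array also had the highest fibroblast and endothelial marker sums, and their part in this was not tested. Without it the rule gave 130 genes in place of 117, and 47 in place of 36 outside the cell cycle lists. By the form of the rule, leaving out an array can only keep or add genes.

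**Figure D5:**
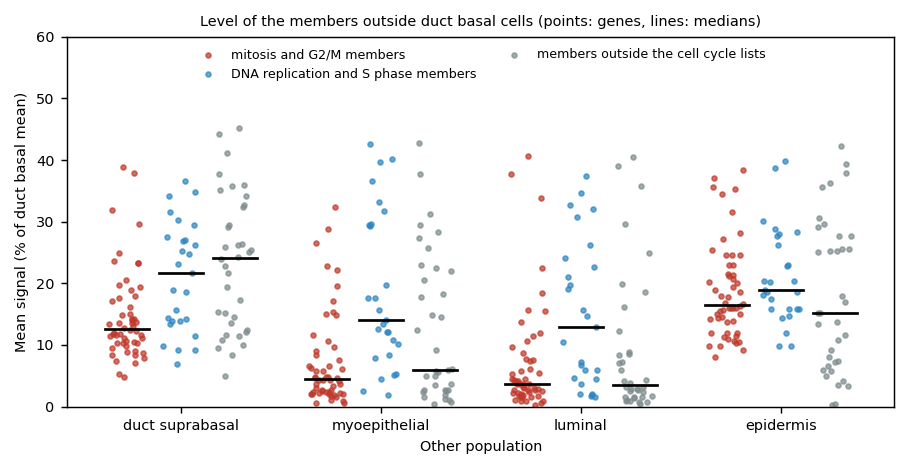
Mean signal of each member in each of the other populations, as a percent of its duct basal mean (points), with the median of each class (lines). Mitosis members have medians of 12.6% in duct suprabasal cells and 16.5% in epidermis, and of 4.47% and 3.64% in the layers of the gland.

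The rule set 1 ceiling over all 8 other arrays but no order among them, so differences among the 4 other populations are given with the test for all genes, and describe genes that were chosen to be lower there than in duct basal cells. The test was limma across the 9320 genes that were above the array's 40th percentile on at least 2 of the 10 arrays. It used log2(signal + 12), with Benjamini-Hochberg adjustment over all genes and a threshold of 0.05. All 117 members were tested, and 116 passed the filter on dim genes without the duct basal arrays. An F test over the 4 populations called 66 of the 81 cell cycle members and 30 of the 36 others, beside 62.9% of all genes tested. Against myoepithelial cells epidermis was higher for 49 of the 81 (19.9% of all genes) and lower for 4 (31.6%), and against luminal cells higher for 59 (19.2%) and lower for 4 (26.1%). The excess of lower calls over all genes depended on the scaling. With quantile normalization all genes had 2338 higher and 2182 lower against myoepithelial cells, and 2036 and 1990 against luminal cells. The cell cycle members then had 58 higher and 2 lower, and 65 and 1. For Cdk1 the log2 difference of epidermis was 2.95 from myoepithelial cells (SE 0.25, adjusted p = 1.96e-05) and 2.25 from luminal cells (SE 0.25, adjusted p = 0.000104). Duct suprabasal cells were higher than luminal cells for 40 of the 81 (10.2% of all genes) and lower for none (4.95%), and higher than myoepithelial cells for 28 (9.27%) and lower for none (8.14%). The 40 became 18 without luminal array 1, 22 without luminal array 2 and 25 with the geometric mean of each gene's probe sets, the 28 became 18 without myoepithelial array 2, and the 49 and 59 became 36 and 39 without epidermis array 2. Without duct suprabasal array 2 the 40 became 30 and the 28 became 26. Between the layers of the gland 11 cell cycle members were higher in myoepithelial cells (16.5% of all genes) and 4 lower (14.5%), and the 11 became 6 without myoepithelial array 2 and 7 without luminal array 2.

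Between duct suprabasal cells and epidermis few cell cycle members were called. Of the cell cycle members 2 were higher in duct suprabasal cells and 12 lower, and of the 36 others 12 were higher and 2 lower, beside 29.4% of all genes higher and 16.7% lower. The 12 of 81 and the 12 of 36 were close to these shares. The median log2 difference was -0.23 for the cell cycle members, 0.66 for the 36 others and 0.26 for all genes tested. With quantile normalization the median of all genes was -0.10, and the calls became 1 higher and 38 lower for the cell cycle members and 9 higher and 7 lower for the others. Without duct suprabasal array 2 the median of the 36 was 0.06, with 8 higher and 4 lower. The 14 cell cycle calls also rest on single arrays, with 4 left without epidermis array 2 and 6 without epidermis array 1. Of the 12 members outside the lists that were higher in duct suprabasal cells, 8 were called in the same direction under all 20 alternatives, namely Aox3, Rspo1, Col8a1, Adh7, Bmp2, Sulf2, Ctsc and Dram1. For Aox3 the log2 difference of duct suprabasal cells minus epidermis was 3.76 (SE 0.60, adjusted p = 0.00105 by limma), and for Rspo1 3.64 (SE 0.38, adjusted p = 0.000124). Col8a1 and Bmp2 had differences of 2.33 (SE 0.36, adjusted p = 0.000862) and 2.04 (SE 0.36, adjusted p = 0.00172). For Rbp4 the difference was 1.29 (SE 0.58), for Lmo1 0.14 (SE 0.61) and for Gpha2 0.78 (SE 0.87), with adjusted p of 0.0971, 0.873 and 0.497. The duct suprabasal arrays of these 3 genes lay far apart. Bnc1 was lower in duct suprabasal cells by a log2 difference of -1.25 (SE 0.34, adjusted p = 0.0155) and Sox15 by -1.23 (SE 0.41, adjusted p = 0.0342), and each lost its call when single duct suprabasal or epidermis arrays were left out. Among cell cycle members, Uhrf1 was lower in duct suprabasal cells (-1.49, SE 0.26, adjusted p = 0.00161) and Dnmt1 higher (1.09, SE 0.18, adjusted p = 0.00139) under all 20 alternatives.

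Within the sweat apparatus, the calls for members outside the lists between duct suprabasal cells and the gland ran nearly all toward the duct. Duct suprabasal cells were higher than luminal cells for 24 of the 36 (10.2% of all genes) and lower for none (4.95%), and higher than myoepithelial cells for 15 (9.27%) and lower for 1 (8.14%), Vsnl1. The 24 became 12 without duct suprabasal array 2 and 10 without luminal array 1, and the 15 became 12 without duct suprabasal array 2. Epidermis was higher than luminal cells for 20 of the 36 (19.2% of all genes) and lower for 2 (26.1%), Tnfrsf21 and Dram1, and higher than myoepithelial cells for 14 (19.9%) and lower for 2 (31.6%), Vsnl1 and Dram1. With quantile normalization the calls of the 36 were 20 higher and none lower against luminal cells, and 16 higher and 2 lower against myoepithelial cells. Between the gland layers 9 of the 36 were higher in myoepithelial cells (16.5% of all genes), among them Ptn, Wnt10a, Jag1 and Vsnl1, and 2 were lower (14.5%), Otud7a and Sulf2. For Gpha2 no pair of the 4 populations differed past the threshold, and the adjusted p of the F test was 0.751.

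The rest of the cell cycle lists followed the members. In the fit of all genes, duct basal cells minus the mean of the 4 others was past the threshold in the upward direction for 12.7% of genes and in the downward direction for 6.76%, with a median log2 difference of 0.02. Of 149 tested genes of mitosis and G2/M, 120 were higher and 1, Rrm2b, lower, with a median of 2.15. The 120 and the median include the 54 members, which the rule had picked for being higher, so their calls are not a test. Of the 95 mitosis genes that did not meet the rule 66 were higher. Of 80 tested genes of DNA replication and S phase 75 were higher and none lower, with a median of 1.75, and 48 of the 53 that did not meet the rule were higher. Here too the 75 and the median include the 27 members that the rule had picked. Without duct basal array 1 the 75 became 45. Of the genes that did not meet the rule, 28 of the 95 of mitosis and 18 of the 53 of S phase were higher than each of the 4 populations, beside 2.27% of all genes. The filter on dim genes counted the duct basal arrays too. With the filter on the 8 other arrays alone, 83 mitosis and 46 S phase genes that did not meet the rule were tested. Of these 23 and 15 were higher than each of the 4, and the 120 and 75 became 108 and 68. Leaving out duct basal array 1 turned the 28 into 8 and leaving out array 2 into 9, and it became 10 without epidermis array 1, and 18 without epidermis array 2 or myoepithelial array 2. The 18 became 5 without duct basal array 1, and 9 without duct basal array 2 or epidermis array 2. Regulators of the G1 phase moved less. Of 24 tested, 10 were higher and 1 lower, with a median of 0.60, and no gene of this list met the rule. The proto-oncogene Myc read 1169 and 3059 in duct basal cells, against 490.0 and 446.4 in duct suprabasal, 184.4 and 190.2 in myoepithelial, 45.5 and 67.6 in luminal cells and 612.0 and 585.4 in epidermis, a log2 difference of 2.93 from the mean of the 4 (SE 0.31, adjusted p = 0.000338). Both duct basal arrays were above the others for Myc, but they lay far apart. Ccnd2, a D-type cyclin, read 4851 and 3410 on the duct basal arrays and 3140 and 4796 on the myoepithelial arrays, so these groups overlapped. Ccnd3, another D-type cyclin, read 194.2 and 231.2 in duct basal cells, against 370.1 and 269.5 in duct suprabasal, 604.1 and 682.5 in myoepithelial, 630.8 and 523.1 in luminal cells and 178.0 and 187.8 in epidermis. It was thus lower than the mean of the 4 but not than epidermis, with a log2 difference of -0.82 (SE 0.18, adjusted p = 0.0152) that was no longer past the threshold when either duct basal array was left out.

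The families of the marker genes did not move as a whole. Of 20 tested genes of retinoid handling, 4 were higher in duct basal cells than the mean of the 4 others and 1 lower, with a median log2 difference of -0.20. Of the 4, Rbp4 and Aox3 are members, which the rule had picked for this difference, and the others were Crabp2 and Stra6. Stra6, the receptor that takes up retinol from Rbp4, read 218.6 and 286.0 in duct basal cells, against 140.0 and 173.0 in duct suprabasal cells and at most 69.8 on the 6 others (log2 difference 2.09, SE 0.27, adjusted p = 0.0011). Crabp2, a carrier of retinoic acid, read 1404 and 1643 in duct basal cells but 4588 and 4998 in epidermis. Dhrs3, which reduces retinal to retinol, was the gene that was lower, with 597.9 and 637.8 in duct basal cells and 1035 to 2070.5 in the duct suprabasal and gland populations, but 443.8 and 324.0 in epidermis, and lost its call in several alternatives. The other aldehyde oxidases did not share the pattern of Aox3. Aox1 read 114.9 and 91.0 in duct basal cells and 107.4 and 279.2 in duct suprabasal cells, and Aox4 read 22.1 and 5.7 in duct basal cells and 470.3 and 523.1 in epidermis. Of the 7 genes of glycoprotein hormones and their receptors on the array, Gpha2 was the 1 gene with a signal above 52.3 on any array. Of 14 tested LIM-only proteins and partners, 2 were higher, Ssbp3 and the member Lmo1, which the rule had picked, and 2 lower, Lmo4 and Lyl1. Ssbp3 and Lyl1 lost their calls in many of the alternatives. Lmo4, a relative of Lmo1, read 699.9 and 715.6 in duct basal cells, against 2493 and 1218 in duct suprabasal, 3751 and 4298 in myoepithelial, 4886 and 6316 in luminal cells and 258.9 and 289.9 in epidermis (log2 difference -1.35, SE 0.24, adjusted p = 0.00499), and was not past the threshold when either duct basal array was left out.

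Basal keratinocyte genes were high in duct basal cells but did not meet the rule. Of 20 tested, 15 were higher than the mean of the 4 others (12.7% of all genes) and none lower (6.76%), with a median log2 difference of 1.30, and 1, Itgb4, was higher than each of the 4. The call of Itgb4 against each was lost without duct basal array 2 and without luminal array 2. Without duct basal array 1 the 15 became 7, and without array 2 they became 8. Against myoepithelial cells, which are a basal layer too, 3 of the 20 were higher in duct basal cells (12.3% of all genes) and 5 lower (12%). With single arrays left out the 3 ranged from 2 to 6, with 6 without either duct suprabasal array, and the 5 from 2 to 8, with 3 without duct basal array 1, 2 without myoepithelial array 2 and 8 without either duct suprabasal array. Lamb3, a laminin chain, read 2060 and 2894 in duct basal cells and 5093 and 5787 in myoepithelial cells. Itgb4, the integrin of hemidesmosomes, read 1184 and 1561 in duct basal cells and at most 676.8 elsewhere. Of markers of other cells, duct basal cells were higher than the mean of the 4 in 3 of 10 fibroblast genes (Dcn, Col1a1 and Postn, each lost without duct basal array 1), in none of 11 endothelial, 9 immune, 4 pericyte, 6 melanocyte, 4 Schwann cell, 15 simple epithelial and 11 contractile genes, in 3 of 20 epidermal differentiation, 4 of 9 wound keratin, 2 of 8 hair follicle and 4 of 15 immediate early genes. Dcn, the proteoglycan decorin, read 22039 and 18361 in duct basal cells, against 6094 and 33120 in duct suprabasal, 11955 and 15303 in myoepithelial, 490.3 and 1940 in luminal cells and 975.1 and 1254 in epidermis. Lum and Dpt, also of fibroblasts, read 59.2 and 115.4 and 29.6 and 81.5 on the duct basal arrays. The part of other cell types in the members' levels was not tested. Immediate early genes, which rise when tissue is dissociated, summed to 97197 and 169576 on the duct basal arrays, against 80121 to 134053 in duct suprabasal and gland cells and 26785 and 37109 in epidermis.

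The genes nearest to Rbp4 in pattern were themselves mostly members. Rbp4 was itself picked by the rule for its high duct basal signals, so members were likely to be near it, and the likeness is a description. Over the 10 arrays, which hold 5 pairs from the same populations, the highest Pearson correlations of log2 signal with Rbp4 were those of Mcm6 (0.983), Lmo1 (0.981), Nrm (0.978), Chaf1b (0.976) and Notum (0.976), of which all except Chaf1b met the rule. Nearest to Gpha2 were Pimreg (0.960), Ptgs2 (0.950), Tubb5 (0.946), Tmeff2 (0.942) and Cd276 (0.940), none of which met the rule. Other probe sets of the same genes give a further reading that the rule did not use. Of the 117 members 60 had 85 other probe sets, and for 57 of these both duct basal arrays were above all 8 others. The 57 were 47 of 72 for cell cycle members and 10 of 13 for members outside the lists. Those of Jag1 and Otud7a were not among them, with ratios of 0.71 and 0.76. Many of the other probe sets were dim. Of the 85, 19 met the rule, 18 of them for cell cycle members and 1, that of Ptn, for the others. Examples are the second probe set of Ptn, with 1459 and 2068 on the duct basal arrays and a ratio of 4.27, and that of Aurkb, with 345.0 and 356.6 and a ratio of 7.48. The second probe sets of Adh7 (811.0 and 768.5, ratio 1.90) and Cyp7b1 (317.6 and 360.9, ratio 1.96) lay just under the ratio threshold. Rbp4, Gpha2, Aox3 and Lmo1 had no second probe set. That of Top2a was near the floor on every array, with 1.0 and 1.0 on the duct basal arrays and at most 2.1 elsewhere.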

How the data were processed

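Total RNA was extracted with Trizol and hybridised as biotin-labelled cRNA, per the labels' protocols. The deposited values are probe set intensities, the linear signal that MAS5 gives, per the submitters' processing notes. The version of MAS5 is not given in the sources used here. With 2% of values trimmed at either end, the mean was 500 on each of the 10 arrays. Of 22690 probe sets, 64 controls were left out, 20380 had 1 gene symbol, 691 several and 1555 none, and the 12393 genes were each read from the probe set with the highest mean. RefSeq records were found for 20351 single-gene probe sets and changed 0 symbols. No detection calls were used, and the number of arrays limits the precision.

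The log2 of signal plus 12 (the 20th percentile of all values) was fitted with limma 3.58.1 in R 4.3.3, in 1 model of the 5 populations with variances that follow the mean signal. A gene was tested if it was above the array's 40th percentile on at least 2 arrays, which left 9320. The comparisons were duct basal cells against the mean of the other populations and against each, and all pairs and an F test of the 4 others. Comparisons with 1 population in common use the same arrays of it. SE is the standard error of a log2 difference. The fit was tested on simulated data. The members, the gene lists and the tests were chosen with earlier results of these data known. Genes are named by rank of ratio (20 members outside the cell cycle lists, 12 inside), with up to 4 genes of a list and direction by adjusted p, and 5 genes by likeness to Rbp4 and to Gpha2, and other members are named to account for them. The alternatives were other thresholds of the rule, pseudocounts of 1 and 50, quantile normalization, other filters, variances without a trend, the geometric mean of a gene's probe sets, the replicate number as a block and leaving out each array.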

Additional observations from a re-analysis of the deposited data

Results flagged for a closer look

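Of 2246 probe sets that the gene table pairs with no gene or with several, 5 met the same rule in duct basal cells. All 5 are unlisted in that table and are unnamed here. Their ratios of the dimmer duct basal signal to the highest other signal ran from 2.42 to 7.02, and their signals on the dimmer duct basal array from 380.8 to 2129. These were flagged because they are signals of duct basal cells outside the genes described, in probe sets that no comparison used.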

How the results depend on the processing

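The 117 members became 77 with a signal minimum of 600 and 74 with a ratio minimum of 3, and the 36 outside the cell cycle lists became 23 with that signal minimum, 74 with a ratio minimum of 1.5 and 16 with a ratio minimum of 3. Quantile normalization gave 109 members, 108 of them shared, and the geometric mean of a gene's probe sets 85, with 80 shared. Leaving out an array can only keep or add members, because the rule takes the dimmer duct basal signal and the highest other signal. With each array left out in turn there were 117 to 149 members and 36 to 57 outside the lists, where the 57 came without duct basal array 1. In the same way the genes that differed between duct basal cells and the mean of the others, 1813, ranged from 737 to 2465, with 777 without duct basal array 1 and 737 without array 2. Genes higher than each of the 4 populations, 212, ranged from 112 to 235, with 118 without duct basal array 1 and 112 without array 2, and genes that differed among the 4 others, 5866, from 4466 to 6323. Higher genes ranged from 45 to 76 for DNA replication and S phase, with 45 without duct basal array 1, from 87 to 126 for mitosis, from 7 to 17 for basal keratinocyte genes and from 4 to 5 for retinoid handling. The labels do not say that replicate numbers pair arrays, and of 10 pairs of populations the differences between array 1 and array 2 correlated by over 0.1 in 4 (median 0.0846), so the numbers were not used as pairs. The replicate block gave 2304 genes against the mean of the others and 257 against each, and moved neither of these counts by over 1.5 times. Some other counts moved by more. Genes lower than each of the 4 became 28 in place of 16, genes lower in duct suprabasal than in luminal cells 694 in place of 461, and basal keratinocyte genes higher and lower than in myoepithelial cells 5 and 8 in place of 3 and 5. Left out together, a choice made after seeing the data, duct suprabasal array 2 and myoepithelial array 1 left 130 members. Filtering dim genes on the 8 other arrays alone, also chosen after seeing the data, left 9170 genes tested, of which 1752 differed from the mean of the others, 195 were higher than each and 5852 differed among the 4 others. Direction was checked for the named list genes against the mean of the 4 others, and no called one turned. The same held for the named members between duct suprabasal cells and epidermis. The balance of calls over all genes did turn in some pairs with quantile normalization. Duct suprabasal cells minus epidermis had 1911 higher and 2100 lower in place of 2739 and 1552. Epidermis minus myoepithelial cells had 2338 higher and 2182 lower in place of 1856 and 2949. With 2 arrays per population, a result that is lost without 1 array may be lost through the smaller number of arrays.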

Other observations

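The opposite pattern was rare. With the rule turned round, so that every one of the 8 other arrays had at least 300 and at least 2 times the brighter duct basal signal, Acss2 was the 1 gene found. Acss2, which makes acetyl-CoA from acetate, read 140.9 and 138.2 on the duct basal arrays, against 571.3 and 423.8 in duct suprabasal, 393.3 and 438.4 in myoepithelial, 721.7 and 703.0 in luminal cells and 402.4 and 310.1 in epidermis, a ratio of 2.20. It is named because it was the only gene, after its values were seen.

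Some genes outside the members were higher in duct basal cells than the mean of the 4 others. Krt17, a keratin of appendages and wounds, read 3804 and 4798 in duct basal cells and 2837 and 3122 in myoepithelial cells (log2 difference 2.75, SE 0.29, adjusted p = 0.000362 by limma). Tbx1, a transcription factor known from hair follicle stem cells, read 1202 and 1561 in duct basal cells and 1298 and 1579 in epidermis (log2 difference 1.69, SE 0.16, adjusted p = 0.000192), and Lgr5, a receptor for R-spondins, 213.6 and 248.8 in duct basal cells and 1234 and 997.3 in myoepithelial cells (log2 difference 1.44, SE 0.26, adjusted p = 0.00584), a call lost without duct basal array 2. Krt17, Tbx1 and Lgr5 were not called higher in duct basal cells than in each of the 4 others.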
